A study of Homo sapiens with 10 samples.

Results

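Genes of the synaptic vesicle and of the exocytosis machinery were described in sensory neurons grown from human embryonic stem cells. The members were chosen by gene symbol, as the synaptotagmins, syntaxins, VAMPs, SNAP proteins, SV2 proteins, synapsins, complexins, syntaxin-binding proteins, UNC13 and RIMS proteins, synaptophysin and its relatives, bassoon and piccolo, by a rule that uses none of their measured values, although earlier results of these data were known when the set was proposed. The choice gave 74 of the 30357 named genes in the tables. The cells came from RUES2-AVIL:tdT, an established embryonic stem cell line edited to carry the red fluorescent protein tdTomato at AVIL, which encodes advillin, an actin regulator typical of sensory neurons. Bulk RNA was sequenced from 10 libraries taken at day in vitro 60, of which 3 followed the proprioceptor protocol (for neurons of muscle sense), 3 the mechanoreceptor protocol (touch neurons of low threshold) and 4 the nociceptor protocol (pain-sensing neurons). All libraries carried the same edit in 1 line, there was no unedited or undifferentiated group, and neither a sort on the reporter nor separate differentiations for the replicates are stated in the labels.

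A neuron releases transmitter when a vesicle fuses with the plasma membrane. Fusion is driven by SNARE proteins, of which VAMP2 (synaptobrevin) sits on the vesicle while STX1A (syntaxin-1A) and SNAP25 sit on the plasma membrane. SM proteins hold the syntaxins, UNC13 and RIM proteins prime the vesicle at the active zone, complexins clamp and assist the assembled complex, and synaptotagmins 1 and 2 sense the calcium that triggers fusion. Synaptophysin, SV2 and the synapsins are vesicle proteins that shape vesicle supply and recycling. In the body, sensory neurons release glutamate from their central terminals in the spinal cord and brainstem, and peptides from dense-core vesicles.

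SNAP25 is made in 2 forms that differ in exon 5, a block of the messenger RNA, and these sequences are shown because the transcript shares below turn on them. Both exons lie on chromosome 20 on the plus strand of GRCh38, exon 5a at chr20:10292882-10292999 and exon 5b at chr20:10293161-10293278, and both are 118 bases long. The capitals mark the 31 positions at which the aligned exons differ, and the exons are 73.7% identical.
exon 5a: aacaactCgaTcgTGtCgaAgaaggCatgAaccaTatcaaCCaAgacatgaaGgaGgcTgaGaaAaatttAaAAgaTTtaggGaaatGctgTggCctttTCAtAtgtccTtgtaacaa
exon 5b: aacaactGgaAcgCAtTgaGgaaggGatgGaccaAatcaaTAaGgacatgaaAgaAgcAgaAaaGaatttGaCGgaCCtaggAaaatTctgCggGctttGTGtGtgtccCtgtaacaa

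Promoters were searched for a pair of regulatory words, in RefSeq windows that run from 250 bases before to 50 bases after the start site (GRCh38.p14). The first was a strict form of RE1, the word through which the repressor REST silences neuronal genes outside neurons, spelled CAGCACC, then any 2 bases, then GGACAG. The second was the cyclic AMP response element, TGACGTCA, and both strands were read. Of the 74 members, 59 had a window. RE1 was in 1 of these 59 windows, that of SYN1, against 14 of 27305 windows over all genes (0.0513%). The response element was in 3 of the 59, those of SYN1, STX12 and STXBP3, against 540 of 27305 (1.98%). The windows lie at chrX:47619808-47620107 on the minus strand for SYN1, at chr1:27772969-27773268 on the plus strand for STX12 and at chr1:108746424-108746723 on the plus strand for STXBP3. The matches are shown with 10 bases on each side, 5′ to 3′ along the gene, with the word in capitals.
SYN1 RE1: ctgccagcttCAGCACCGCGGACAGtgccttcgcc
SYN1 response element: gaaggcgcgcTGACGTCActcgccggtc
STX12 response element: cccaactaggTGACGTCAtctccccgcc
STXBP3 response element: ctgacgcgcgTGACGTCAccggagggcg
The SYN1 words begin 231 and 159 bases before the start site, and the words of STX12 and STXBP3 begin 194 and 78 bases before theirs. No level in these libraries bears on whether a factor binds there.

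Library totals over named genes ran from 27891186 to 44541262 counts, and the members took between 0.413% and 0.771% of them. Proprioceptor library 1 stood apart: it held the lowest TPM (a level scaled for transcript length and library size) of the 10 libraries in 6764 of 13941 genes at a mean of at least 1 TPM (48.5%) and in 32 of the 65 members at that level (49.2%). In that library the median deviation from the gene mean on the log2(TPM + 1) scale was 0.09, -0.61, -1.05 and -1.05 from the shortest to the longest quartile of coding transcripts over 10060 genes. For the 57 members among them it was -0.56, -0.92, -0.79 and -0.81, so member levels in that library are given beside a low bias whose part in each value was not tested. Nociceptor library 1 ran the other way over all genes, at -0.33, -0.03, 0.25 and 0.35, and was at -0.22, 0.35, -0.60 and -0.15 in members. It held the highest TPM in 19.5% of genes and 21.5% of members, and the lowest in 16.4% and 18.5%. The part of transcript length in its values was not tested either. Schwann and satellite glia markers (12 genes) summed to 269, 3558 and 627 TPM in proprioceptor libraries 1 to 3, to 489, 638 and 2929.8 TPM in mechanoreceptor libraries 1 to 3 and to 5863, 3993, 9359.6 and 1224 TPM in nociceptor libraries 1 to 4. Fibroblast and mesenchyme markers (15 genes) summed to 475, 1867 and 467 TPM, to 526, 739.95 and 1991 TPM and to 1659.7, 1635, 4212 and 994 TPM in the same order. Most of the lowest of these sums was THY1. It had 459 and 432 TPM in proprioceptor libraries 1 and 3 and 508 and 724 TPM in mechanoreceptor libraries 1 and 2. In nociceptor library 4 it had 841 TPM, and in the remaining libraries 400 to 854 TPM. NGFR likewise held 437 TPM of the glial sum in proprioceptor library 3 and 423 and 550 TPM in mechanoreceptor libraries 1 and 2. Elsewhere NGFR had 80.5 to 833 TPM. Pan-neuronal markers (14 genes, none of them members) summed to between 9822 and 16233 TPM in proprioceptor, between 9842 and 13836 TPM in mechanoreceptor and between 5303 and 12816 TPM in nociceptor libraries. Each gene of the sensory neuron list reached 1 TPM in some library apart from SCN10A, the pain-fibre sodium channel, which stayed under 1 TPM in every library. POU4F2 stayed under 1 TPM in the mechanoreceptor libraries, at 0.164, 0.123 and 0.729 TPM. Among lists of other lineages, 4 of 6 skeletal muscle genes, 4 of 7 of central glia, 3 of 5 of melanocytes and 2 of 4 of leukocytes were under 1 TPM throughout, but of the 5 epithelial genes CDH1 alone was, and the epithelial list summed to 63.6 to 73.8 TPM in proprioceptor, 70.6 to 98.2 TPM in mechanoreceptor and 31.1 to 152.7 TPM in nociceptor libraries. Central glia genes summed to as much as 43.1, 39.2 and 105.6 TPM in the same protocols. Most of each of these sums was 1 gene, MAG. It had 39.8 TPM in proprioceptor library 2, 35.2 TPM in mechanoreceptor library 3 and 91.8 TPM in nociceptor library 3, which held the sums. AVIL itself lay between 1.17 and 3.55 TPM. In bulk RNA, fewer neurons in a culture and less RNA per neuron cannot be told apart.

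**Figure D1:**
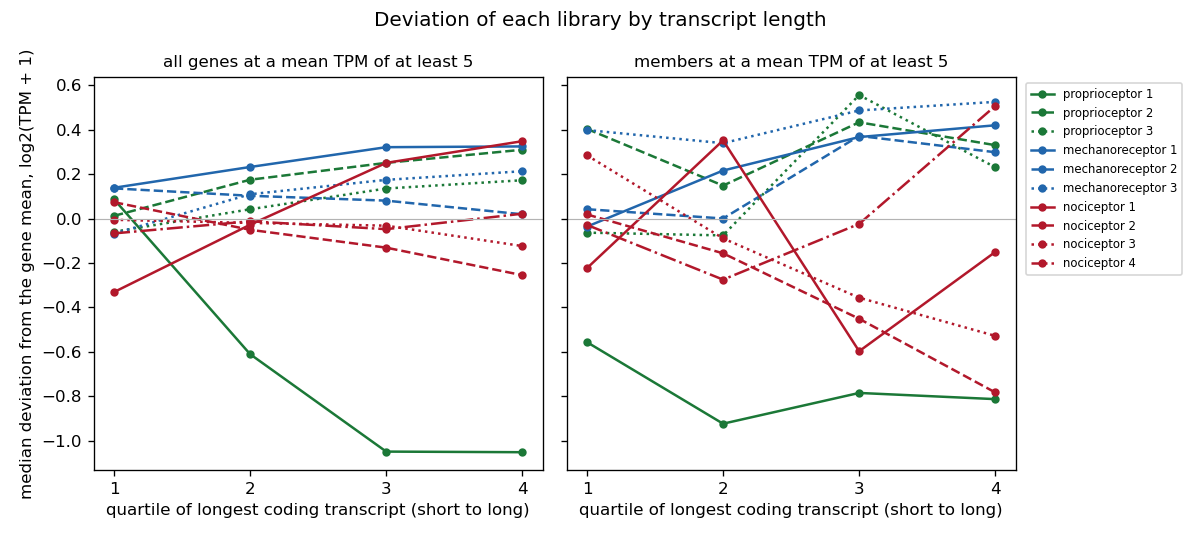
Median deviation of each library from the mean of each gene, on the log2(TPM + 1) scale, by quartile of the longest coding transcript, for all 10060 genes at a mean of at least 5 TPM (left) and for the 57 members among them (right). Proprioceptor library 1 runs from 0.09 to -1.05 over all genes and from -0.56 to -0.81 in the members, and it is the lowest of the 10 libraries in every member quartile.

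Most of the machinery was present in all 3 protocols. Of the 74 members, 65 (87.8%) had a mean of at least 1 TPM over the 10 libraries, against 13941 of 30357 named genes (45.9%), and 55 were at 1 TPM or more in every library. The mean was at least 100 TPM for 10 members, between 10 and 100 TPM for 35, between 1 and 10 TPM for 20 and under 1 TPM for 9. The 9 lowest were SYT3, SYT8 and SYT10, the retinal complexins CPLX3 and CPLX4, UNC13C and UNC13D, and the syntaxin STX19 and VAMP5 of non-neuronal traffic. Summed over all members, the level was 3410 ± 880 TPM in proprioceptor libraries, 4121 ± 271 TPM in mechanoreceptor libraries and 3021 ± 588 TPM in nociceptor libraries (SD, n = 3, 3 and 4). The ranges were 2395 to 3965 TPM, 3874 to 4411 TPM and 2443 to 3638 TPM, so that each mechanoreceptor library lay above each nociceptor library, while the proprioceptor range overlapped both.

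**Figure D2:**
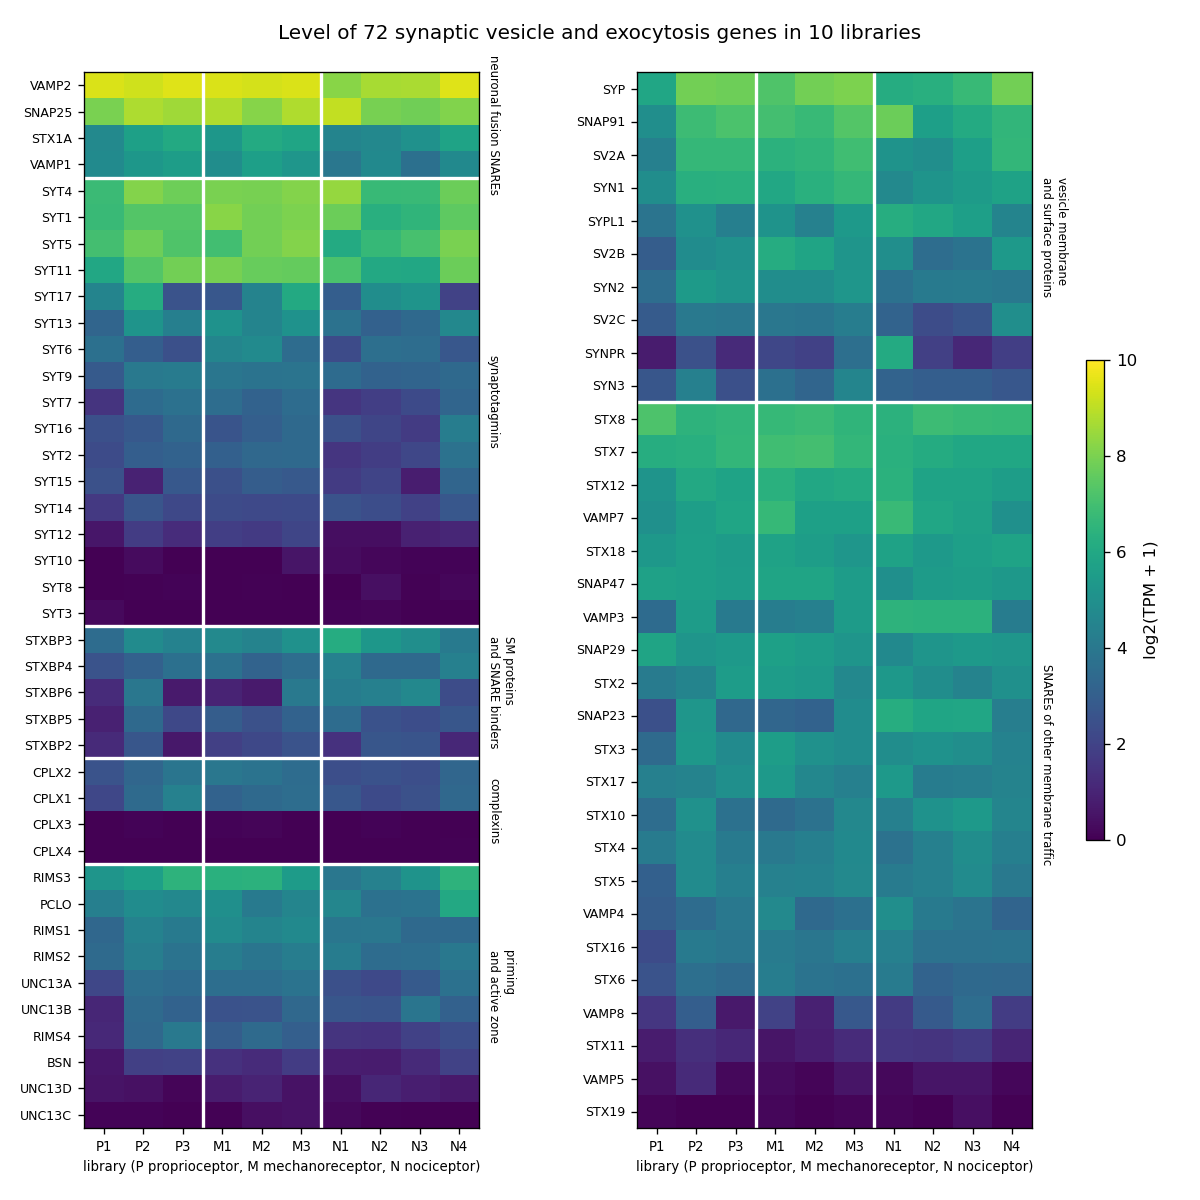
Level of 72 members in the 10 libraries as log2(TPM + 1), grouped by role and ordered by mean level within a role (P, M and N are the proprioceptor, mechanoreceptor and nociceptor protocols). VAMP2 and SNAP25 head the members in every protocol, while CPLX3, CPLX4, SYT3, SYT8, SYT10, UNC13C and STX19 stay near 0 throughout.

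VAMP2 was the highest member, and 217 named genes in all had a higher mean. It had 691, 627 and 734 TPM in proprioceptor libraries, 698, 646 and 691 TPM in mechanoreceptor libraries and 302, 414, 426 and 734 TPM in nociceptor libraries 1 to 4. The first 3 nociceptor libraries lay under all 6 of the others, while the fourth equalled the highest proprioceptor library. SNAP25 followed with 253, 430.0 and 376 TPM in proprioceptor, 447, 291 and 449 TPM in mechanoreceptor and 545, 245, 228 and 277 TPM in nociceptor libraries. Its highest value was in nociceptor library 1 and the protocols overlapped throughout. VAMP2 lies at chr17:8159147-8162948 and SNAP25 at chr20:10218830-10307418 in the RefSeq annotation of GRCh38.p14.

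STX1A, which anchors the complex in the plasma membrane, had 24.8, 50.6 and 66.9 TPM in proprioceptor, 38.4, 68.3 and 57.3 TPM in mechanoreceptor and 21.8, 24.5, 32.1 and 54.6 TPM in nociceptor libraries. The 4 lowest values were those of proprioceptor library 1 and nociceptor libraries 1 to 3, and the protocols overlapped.

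VAMP1, the vesicle SNARE that serves fast synapses such as the neuromuscular junction, ran far under VAMP2. It had 26.5, 38.2 and 46.5 TPM in proprioceptor libraries, 28.8, 49.5 and 37.1 TPM in mechanoreceptor libraries and 14.7, 26.0, 11.9 and 25.6 TPM in nociceptor libraries. All 6 proprioceptor and mechanoreceptor libraries lay above all 4 nociceptor libraries. VAMP2 exceeded VAMP1 in 10 of 10 libraries, by 13.0 to 35.9 times. These ratios between paralogs were picked after the levels were seen and are a description.

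Among 17 synaptotagmins, 4 were above 100 TPM on average. SYT4, found on peptide vesicles in rodents, led with 112, 279 and 218 TPM in proprioceptor, 252, 245 and 279 TPM in mechanoreceptor and 336, 105, 107 and 217 TPM in nociceptor libraries. SYT1, the calcium sensor of fast release, had 108, 159.5 and 160.3 TPM in proprioceptor libraries, 299, 232 and 262 TPM in mechanoreceptor libraries and 215, 77.9, 93.3 and 181 TPM in nociceptor libraries. The 3 mechanoreceptor libraries were the highest of the 10 for SYT1, above the best nociceptor and proprioceptor library. SYT5 averaged 166 ± 48.1, 215 ± 81.3 and 139 ± 80.4 TPM and SYT11 averaged 152 ± 85.6, 217 ± 26.8 and 121 ± 73.3 TPM in proprioceptor, mechanoreceptor and nociceptor libraries (SD, n = 3, 3 and 4), and both overlapped between all protocols.

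SYT2, the calcium sensor of the fastest synapses, was lower than SYT1 in 10 of 10 libraries, by 14.2 to 113 times. SYT2 had 3.92, 7.01 and 7.76 TPM in proprioceptor, 7.39, 9.37 and 9.77 TPM in mechanoreceptor and 1.89, 2.53, 3.40 and 12.7 TPM in nociceptor libraries. Nociceptor library 4 was the highest of the 10 and the other nociceptor libraries were the 3 lowest. SYT7, the slow sensor of asynchronous release, had 1.83, 10.2 and 12.1 TPM in proprioceptor, 10.9, 7.92 and 10.7 TPM in mechanoreceptor and 1.92, 2.62, 3.77 and 8.63 TPM in nociceptor libraries. SYT17 varied most among the synaptotagmins above 10 TPM, by 24.95 times over the 10 libraries, from 2.89 TPM in nociceptor library 4 to 72.2 TPM in proprioceptor library 2. SYT15 shares reads with a near copy, SYT15B, which reached 2.81 TPM, so the split between them is uncertain.

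Among the proteins that bind SNAREs, STXBP3 (Munc18c), which serves syntaxin-4 at the plasma membrane of many cell types, had 10.6, 27.3 and 20.4 TPM in proprioceptor, 25.1, 21.5 and 32.6 TPM in mechanoreceptor and 72.0, 37.8, 29.5 and 16.4 TPM in nociceptor libraries. STXBP6 (amisyn) spanned 38.7 times over the libraries. It had 1.36, 14.7 and 0.631 TPM in proprioceptor libraries, 0.979, 0.631 and 15.7 TPM in mechanoreceptor libraries and 17.2, 19.4, 24.4 and 3.97 TPM in nociceptor libraries. Its 5 values above 10 TPM were in the 5 libraries in which the Schwann and satellite glia markers summed to 2929.8 TPM or more.

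Complexins 1 and 2 stood close to each other. CPLX1 had 3.34, 10.1 and 20.2 TPM in proprioceptor, 7.93, 9.57 and 11.0 TPM in mechanoreceptor and 5.50, 3.68, 4.59 and 9.52 TPM in nociceptor libraries, and CPLX2 had 4.85, 8.80 and 13.6 TPM in proprioceptor, 14.7, 13.1 and 10.5 TPM in mechanoreceptor and 4.30, 4.67, 4.22 and 8.85 TPM in nociceptor libraries. CPLX1 was the higher in 6 libraries and CPLX2 in 4. For CPLX2 the mechanoreceptor libraries lay above all nociceptor libraries.

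At the active zone RIMS3, a short RIM with only the last domain of the family, was the highest. It had 35.8, 49.3 and 86.2 TPM in proprioceptor libraries, 80.2, 84.1 and 43.5 TPM in mechanoreceptor libraries and 14.6, 20.3, 34.0 and 87.8 TPM in nociceptor libraries. RIMS1, the full-length scaffold that ties vesicles to calcium channels, had 9.13, 20.4 and 16.2 TPM in proprioceptor, 27.2, 22.1 and 25.7 TPM in mechanoreceptor and 14.3, 14.7, 9.78 and 9.71 TPM in nociceptor libraries. The 3 mechanoreceptor libraries held the 3 highest RIMS1 values of the 10.

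Piccolo (PCLO), a giant scaffold, had 19.2, 28.5 and 24.5 TPM in proprioceptor, 30.8, 16.6 and 22.6 TPM in mechanoreceptor and 22.8, 12.3, 13.0 and 64.1 TPM in nociceptor libraries. Its partner bassoon (BSN) had 0.523, 2.71 and 2.95 TPM in proprioceptor, 1.70, 1.36 and 2.42 TPM in mechanoreceptor and 0.737, 0.673, 1.28 and 2.95 TPM in nociceptor libraries. PCLO exceeded BSN in 10 of 10 libraries, by 8.31 to 36.6 times. UNC13A (Munc13-1), the main primer of brain synapses, had 3.33, 11.4 and 10.1 TPM in proprioceptor, 11.1, 11.1 and 12.9 TPM in mechanoreceptor and 4.47, 3.62, 6.05 and 12.3 TPM in nociceptor libraries. UNC13A exceeded UNC13B in 7 libraries, while UNC13B was the higher in nociceptor libraries 1 to 3.

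Synaptophysin (SYP), a classic marker of vesicle membrane, had 58.9, 232 and 222 TPM in proprioceptor, 152, 234 and 263 TPM in mechanoreceptor and 71.5, 79.2, 105 and 232 TPM in nociceptor libraries. The low values were in proprioceptor library 1 and in nociceptor libraries 1 to 3. SV2A, which is bound by the drug levetiracetam, was lowest in the same 4 libraries, with 19.7, 99.8 and 101 TPM in proprioceptor, 83.8, 93.1 and 121 TPM in mechanoreceptor and 34.2, 30.1, 49.1 and 96.4 TPM in nociceptor libraries. SNAP91 (AP180), the clathrin assembly protein of vesicle retrieval, had 29.8, 114 and 143 TPM in proprioceptor, 128, 105 and 160.2 TPM in mechanoreceptor and 216, 48.7, 68.5 and 95.3 TPM in nociceptor libraries. For SNAP91 the highest of all libraries was nociceptor library 1.

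Synapsin 1 (SYN1), which tethers vesicles in the reserve pool, had 28.8, 77.8 and 79.5 TPM in proprioceptor, 62.7, 79.6 and 101 TPM in mechanoreceptor and 25.1, 35.3, 44.5 and 53.2 TPM in nociceptor libraries. SYN2 had 11.0, 42.9 and 35.0 TPM in proprioceptor, 28.6, 28.7 and 37.2 TPM in mechanoreceptor and 12.4, 15.8, 16.7 and 15.2 TPM in nociceptor libraries. For both, every mechanoreceptor library lay above every nociceptor library, and so did proprioceptor libraries 2 and 3 but not 1. Synaptoporin (SYNPR), a relative of synaptophysin, was at 69.0 TPM in nociceptor library 1 and at 11.6 TPM or less in the other 9 libraries.

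SNAREs that serve other membrane traffic made up 22 members. STX8 and STX7, a pair of late endosome SNAREs, were the highest. STX8 had 147, 86.7 and 95.1 TPM in proprioceptor, 104, 113 and 93.5 TPM in mechanoreceptor and 85.1, 116, 107 and 103 TPM in nociceptor libraries, and STX7 had 73.7, 78.8 and 96.9 TPM in proprioceptor, 123, 127 and 98.2 TPM in mechanoreceptor and 81.1, 71.0, 61.8 and 60.7 TPM in nociceptor libraries. STX8 varied by only 1.73 times over the libraries and was highest in proprioceptor library 1. STX16 shares its locus with the read-through STX16-NPEPL1, which reached 4.25 TPM.

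VAMP3 (cellubrevin) and SNAP23, the vesicle and plasma membrane SNAREs of constitutive traffic in most cells, followed another pattern over libraries. VAMP3 had 10.3, 44.6 and 15.9 TPM in proprioceptor, 18.0, 19.5 and 43.9 TPM in mechanoreceptor and 88.1, 84.9, 85.3 and 17.4 TPM in nociceptor libraries. SNAP23 had 4.45, 37.5 and 9.30 TPM in proprioceptor, 8.82, 7.82 and 28.3 TPM in mechanoreceptor and 73.8, 58.0, 59.7 and 18.5 TPM in nociceptor libraries. Both were highest in nociceptor libraries 1 to 3 and next in proprioceptor library 2 and mechanoreceptor library 3. The same 5 libraries held the 5 highest sums of the Schwann and satellite glia markers. SYPL1, a synaptophysin relative found in many tissues, had 13.3, 32.8 and 18.7 TPM in proprioceptor, 34.3, 19.8 and 42.0 TPM in mechanoreceptor and 74.6, 63.6, 49.5 and 22.1 TPM in nociceptor libraries. The part of glial cells in these levels was not tested.

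The ratio of SNAP25 to SNAP23 set the neuronal against the general form within a library. It was 56.7, 11.5 and 40.5 in proprioceptor, 50.7, 37.3 and 15.9 in mechanoreceptor and 7.38, 4.23, 3.81 and 14.95 in nociceptor libraries. The ratio of SYP to SYPL1 was 4.44, 7.06 and 11.9 in proprioceptor, 4.42, 11.8 and 6.26 in mechanoreceptor and 0.959, 1.25, 2.12 and 10.5 in nociceptor libraries. Nociceptor libraries 1 to 3 held the 3 lowest values of both ratios, and library 4 did not.

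**Figure D3:**
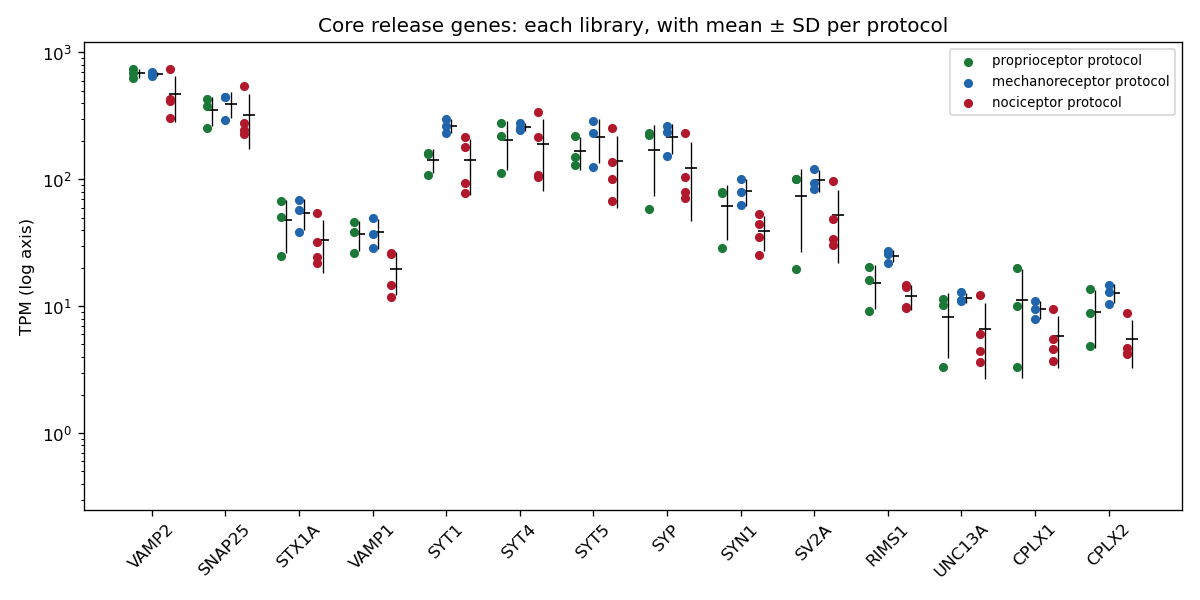
TPM (log axis) of 14 members of the release machinery in each library, with the mean ± SD per protocol (n = 3 proprioceptor, 3 mechanoreceptor and 4 nociceptor libraries). For VAMP1 all proprioceptor and mechanoreceptor libraries lie above the nociceptor libraries, while for VAMP2, SYP and SV2A the fourth nociceptor library lies among those of the other protocols.

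Differences between protocols were tested with edgeR over 16130 genes, which included 68 members. Those not tested for low counts were CPLX3, CPLX4, STX19, SYT3, SYT8 and VAMP5. No member passed an adjusted p of 0.05 in any pairwise contrast or in the F test over the 3 protocols, and no gene of the 16130 did (0%). The common biological coefficient of variation, the spread between replicates of a protocol, was 0.550. DESeq2 called 31, 123 and 0 genes between proprioceptor and nociceptor, mechanoreceptor and nociceptor, and proprioceptor and mechanoreceptor libraries (0.193%, 0.781% and 0%), and 0 of 66 members in each. The F test had an unadjusted p under 0.05 for 8 members (11.8%), against 925 genes (5.73%), and DESeq2's likelihood ratio test called 79 genes (0.492%) and 0 members. Every fold change that follows is therefore a value with its error and not a call. A p that misses the threshold does not show that levels were equal.

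Between proprioceptor and nociceptor libraries, 11 of 68 members (16.2%) had an unadjusted edgeR p under 0.05, against 998 of 16130 genes (6.19%). Of the 11, 7 were higher (10.3% of members, against 3.05% of genes) and 4 lower (5.88%, against 3.14%). In the same contrast 41 members (60.3%) were higher in proprioceptor libraries, against 52.2% of all genes, and the median log2 fold change was 0.17 for members and 0.03 for all genes. SYN2 had a log2 fold change of 0.96 ± 0.30 and VAMP1 of 1.13 ± 0.35 (SE, edgeR adjusted p = 0.665 for both). RIMS4, a short RIM, was at 1.67 ± 0.56 and SYPL1 at -1.45 ± 0.50, again with an edgeR adjusted p of 0.665. VAMP1 was the 1 member whose libraries did not overlap (1.47% of members, against 1.49% of genes that were higher without overlap), and 0 members were lower without overlap, against 1.45% of genes. Others among the 10 members with the smallest p were VAMP3 at -1.62 ± 0.63, SYT9 at 0.57 ± 0.24, CPLX2 at 0.83 ± 0.36, STXBP3 at -0.96 ± 0.42 and SYT12 at 1.12 ± 0.50. Of the remaining 58 tested members the lowest was SYNPR at -3.26, which rests on nociceptor library 1.

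The count of 11 rested on single libraries and on the method. With limma on log2(TPM + 1) it was 4 of 65 members (6.15%), against 822 of 14428 genes (5.7%). With the level of the mesenchyme list as a term in the edgeR fit it was 4 of 68 (5.88%), against 400 genes (2.48%). With DESeq2 it was 10 (14.7%), against 1478 genes (9.16%). It was 2 (2.94%) without proprioceptor library 3, against 600 of all genes (3.63%). It was 5 (7.35%) without nociceptor library 1 or 2, against 3.83% and 3.33% of genes, and 7 (10.3%) without nociceptor library 3, against 3.04%. It was 6 (8.82%) without mechanoreceptor library 1 or 2, against 4.84% and 5.03% of genes. Without nociceptor library 4 it was 25 (36.8%), but all genes moved as well, to 2458 (15.3%). Without proprioceptor library 2 it was 10 (14.7%), against 2704 genes (16.3%), so that the members' share was then no higher than that of all genes. Without proprioceptor library 1, the library with the low bias, it was 10 (14.7%), against 824 genes (4.95%), and the median of members was 0.14. The median was 0.10 without nociceptor library 2.

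Between mechanoreceptor and nociceptor libraries, 12 of 68 members (17.6%) had an unadjusted edgeR p under 0.05, against 1320 genes (8.18%). Of the 12, 8 were higher (11.8% of members, against 3.59% of genes) and 4 lower (5.88%, against 4.59%). In this contrast 49 members (72.1%) were higher in mechanoreceptor libraries, against 50.1% of genes, with a median log2 fold change of 0.27 for members and 0.00 for all genes. RIMS1 came first at 0.85 ± 0.23, followed by CPLX2 at 1.22 ± 0.36, SYN2 at 0.97 ± 0.30 and SYT12 at 1.61 ± 0.50 (SE, edgeR adjusted p = 0.598 for each). For these 4 genes every mechanoreceptor library lay above every nociceptor library. SYT12, a synaptotagmin that binds no calcium, was low throughout, at 2.59, 2.29 and 3.22 TPM in mechanoreceptor and 0.308, 0.309, 0.873 and 1.08 TPM in nociceptor libraries. VAMP1 was at 0.94 ± 0.35, RIMS4 at 1.48 ± 0.56 and SYN1 at 0.94 ± 0.38 (SE). Lower in mechanoreceptor libraries were STX11, a SNARE of immune cells, at -1.11 ± 0.43, VAMP3 at -1.61 ± 0.63 and SYPL1 at -1.19 ± 0.50. The other 58 tested members lay between -2.25 (SNAP23) and 1.18 (UNC13C).

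Mechanoreceptor libraries lay wholly above nociceptor libraries for 12 members (17.6%), against 8.05% of all genes, and wholly below for 0 members, against 1.84%. Among the 12 were RIMS1, CPLX2, SYN2, SYT12, VAMP1, RIMS4, SYN1, SYT1, SYT9, SYN3 and STX7. The count of 12 with an unadjusted p under 0.05 was 4 (5.88%) without mechanoreceptor library 2, against 486 of all genes (2.94%), and 7 (10.3%) without mechanoreceptor library 1, against 613 (3.71%). It was 6 (8.82%) without nociceptor library 2 or 3, against 4.77% and 4.98% of genes, and 27 (39.7%) without nociceptor library 4, against 2580 genes (16.1%). It was 8 without nociceptor library 1, against 1123 genes, and 12 (17.6%) without mechanoreceptor library 3, against 2435 (14.6%). The median of members was 0.14 without mechanoreceptor library 3. With limma on log2(TPM + 1) the count was 13 of 65 (20%), against 1312 genes (9.09%). With the mesenchyme term it was 9 of 68 (13.2%), against 661 genes (4.1%). Without proprioceptor library 1 the count was 14 (20.6%), against 1642 genes (9.86%), and the median was 0.25. Both contrasts share the 4 nociceptor libraries, so their values are not independent of each other.

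Between proprioceptor and mechanoreceptor libraries, 1 of 68 members (1.47%) had an unadjusted edgeR p under 0.05, against 241 genes (1.49%). It was 1 of 68 on the lower side, against 0.75% of genes, and 0 were on the higher side, against 0.744%. That member was SV2B, with 6.73, 27.8 and 32.0 TPM in proprioceptor and 72.2, 55.6 and 36.0 TPM in mechanoreceptor libraries, a log2 fold change of -1.16 ± 0.51 (SE, edgeR adjusted p = 1.000). Proprioceptor libraries lay wholly below mechanoreceptor libraries for 5 members (7.35%), against 5.02% of genes, namely SV2B, RIMS1, SYT1, STX6 and STX7, and wholly above for 0, against 0.868%. Of the 68 members, 24 (35.3%) were higher in proprioceptor libraries, against 53.7% of genes, and the median was -0.17 for members and 0.04 for all genes. Without proprioceptor library 1 that median was -0.05, and without mechanoreceptor library 3 it was 0.003. The members with the next smallest p were SYT6 at -1.01 ± 0.57, RIMS1 at -0.42 ± 0.24, SYT1 at -0.64 ± 0.37, STX6 at -0.47 ± 0.30, SYN3 at -0.81 ± 0.56, STX8 at 0.61 ± 0.45, STX16 at -0.42 ± 0.33, STX3 at -0.37 ± 0.32 and STX11 at 0.49 ± 0.45. STX8 was at -0.19 without proprioceptor library 1. The other 58 tested members lay between -1.51 (SYNPR) and 0.44 (STX10).

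Roles differed in direction within the nociceptor contrasts, as counts with no call. All 5 neuronal fusion SNAREs were higher in proprioceptor than in nociceptor libraries (median log2 fold change 0.78) and all 5 were higher in mechanoreceptor libraries (0.61). Of 15 tested synaptotagmins, 12 were higher in proprioceptor libraries (median 0.37) and 14 in mechanoreceptor libraries (0.49). Both tested complexins were higher in proprioceptor (0.91) and in mechanoreceptor libraries (0.92). Of 10 priming and active zone genes, 7 were higher in proprioceptor (0.26) and 9 in mechanoreceptor libraries (0.50). Of 10 genes of the vesicle membrane and surface, 6 were higher in proprioceptor (0.12) and 8 in mechanoreceptor libraries (0.75).

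The binders and the general SNAREs did not share that direction. Of 6 SM proteins and SNARE binders, 1 was higher in proprioceptor (median of the 6, -0.82) and 1 in mechanoreceptor libraries (-0.44). Of 20 tested SNAREs of other traffic, 8 were higher in proprioceptor (-0.17) and 10 in mechanoreceptor libraries (0.00). The sign of the role medians was the same with DESeq2 size factors and on the log2(TPM + 1) scale, except for the last, which was -0.05 with size factors and 0.17 on the TPM scale. The vesicle group between proprioceptor and nociceptor libraries was at -0.09 without proprioceptor library 2. Beside these, the pan-neuronal markers were higher in 14 of 14 genes in proprioceptor libraries (0.64) and in 13 of 14 in mechanoreceptor libraries (0.46), and Schwann and satellite glia markers were lower in 11 of 11 tested genes in both (-1.70 and -2.17). Markers of dividing cells were lower in 8 of 8 genes in both (-1.80 and -3.38), with an unadjusted p under 0.05 for 3 of them in proprioceptor and 7 in mechanoreceptor libraries. Fibroblast and mesenchyme markers were lower in 13 of 14 genes in proprioceptor (-1.83) and in 12 of 14 in mechanoreceptor libraries (-1.75). The part of the cell makeup in the member values was not tested beyond a fit with the level of the mesenchyme list as a term, under which the median of members was 0.14 in proprioceptor and 0.32 in mechanoreceptor libraries against nociceptor libraries. Under that fit the binders were at 0.16 in mechanoreceptor libraries and the SNAREs of other traffic at 0.04 in proprioceptor libraries, each with its sign turned.

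**Figure D4:**
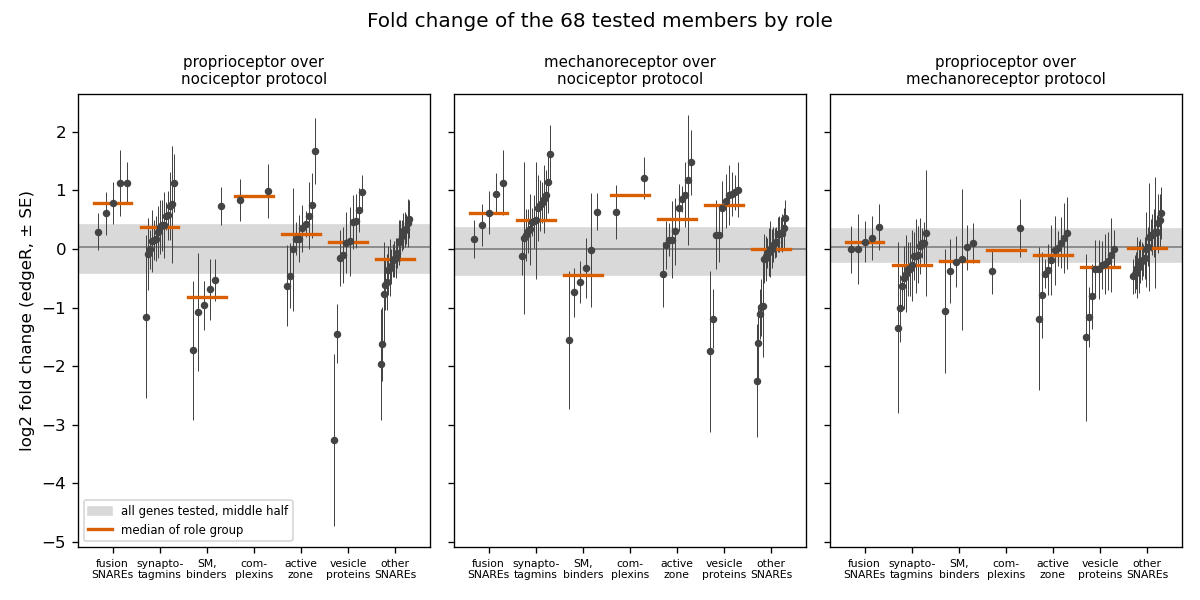
Log2 fold change (edgeR, ± SE) of the 68 tested members by role in the 3 contrasts, with the median of each role as a bar and the range between the quartiles of all 16130 genes as a grey band. Against the nociceptor protocol the fusion SNAREs lie above 0 in both left panels while VAMP3, SYPL1 and SNAP23 lie far below, and no member passed the adjusted threshold.

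Genes outside the set that serve the same steps were read from lists. Of 28 genes of the release machinery, among them NSF and its adaptors that take SNARE complexes apart, the RAB3 family and active zone partners, 24 were higher in proprioceptor (median 0.55) and 25 in mechanoreceptor libraries (0.76) than in nociceptor libraries, with 0 passing the edgeR threshold. RIMBP2, which links RIM proteins to calcium channels, had 3.99, 14.3 and 5.59 TPM in proprioceptor, 26.3, 25.9 and 19.2 TPM in mechanoreceptor and 8.36, 6.85, 6.02 and 12.0 TPM in nociceptor libraries. It had the smallest unadjusted p of these lists between mechanoreceptor and nociceptor libraries (log2 fold change 1.32 ± 0.34) and between proprioceptor and mechanoreceptor libraries (-1.30 ± 0.37). RAB3A, the vesicle GTPase that binds RIM, had 37.4, 105 and 138 TPM in proprioceptor, 135, 145 and 109 TPM in mechanoreceptor and 36.4, 27.2, 34.9 and 83.4 TPM in nociceptor libraries. Of 10 endocytosis genes, 9 were higher in each of proprioceptor (0.50) and mechanoreceptor libraries (0.57). Of 9 dense-core vesicle genes, 6 were higher in proprioceptor (0.25) and 9 in mechanoreceptor libraries (0.50), and 0 of either list passed.

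Transcript values were used for 7 members with known forms. Matching to a GENCODE annotation of GRCh38 covered 60.4% of the gene TPM of SNAP25 and 65.6% of that of SYT1, and 100% of the others, so SNAP25 and SYT1 shares are of the matched transcripts. In rodents the 5a form of SNAP25 prevails in the embryonic brain and the 5b form in the adult. The share of the 5a transcript was 31.1%, 44.4% and 19.8% in proprioceptor, 38.8%, 48.7% and 45.5% in mechanoreceptor and 19.7%, 38.7%, 75.9% and 34.9% in nociceptor libraries. Among matched transcripts the 5b form, which holds the second of the sequences above, was thus the larger in 9 of 10 libraries. Nociceptor library 3 was the exception. The matched part differed between libraries. The main 5b and 5a transcripts had 169 and 41.6 TPM of 545 TPM in nociceptor library 1, and 129 and 123 TPM of 291 TPM in mechanoreceptor library 2. Where much of the level was unmatched, the larger form of the whole gene is not known. The part of this in the shares was not tested. The mean share differed by -10.5 points between proprioceptor and nociceptor libraries (exact permutation test, two-sided, p = 0.629), by 2.05 points between mechanoreceptor and nociceptor libraries (exact p = 0.886) and by -12.6 points between proprioceptor and mechanoreceptor libraries (exact p = 0.2). Without nociceptor library 3 the first difference was 0.69 points.

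The leading transcripts took 62.5% to 82.6% of VAMP1, 73.6% to 88.2% of SYN2, 42.0% to 70.5% of STX3, 77.9% to 86.4% of SYT1, 50.4% to 70.8% of SYT7 and 42.7% to 76.2% of CPLX2. Over the 21 comparisons of 7 genes and 3 contrasts, no exact permutation p was under 0.05. The lowest was 0.0571, for SYT1 between mechanoreceptor and nociceptor libraries (84.9% ± 1.25 and 82.9% ± 0.922, SD, n = 3 and 4), with an adjusted p of 0.7. The smallest p the design allows is 0.0286 for 3 against 4 libraries and 0.1 for 3 against 3. Reads are divided among transcripts by estimation, and that error is not in these values.

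**Figure D5:**
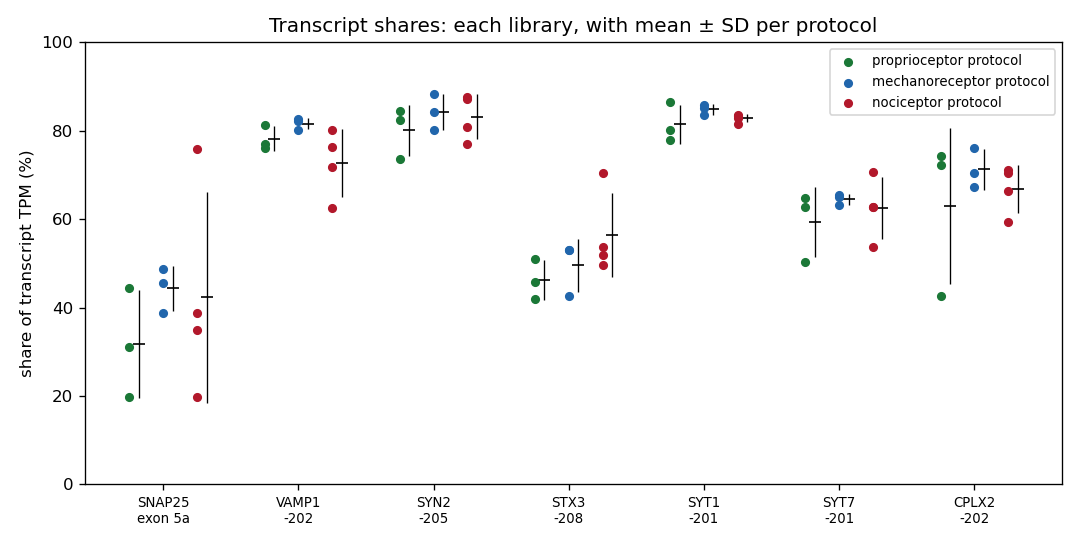
Share of transcript TPM (%) of the 5a form of SNAP25 and of the leading transcript of 6 other members, in each library with the mean ± SD per protocol. The 5a share of SNAP25 spreads from 19.7% to 75.9% within the nociceptor protocol, and the ranges of the protocols overlap for every gene shown.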

How the data were processed

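Trizol served for RNA extraction, and the RNA was checked on a Bioanalyzer, amplified with the Clontech Ultra Low v4 kit, made into NexteraXT libraries and read as paired 75 nt ends, per the labels' protocols. The authors deposited kallisto estimated counts and TPM per gene and per transcript, with kallisto 0.50.1 on GRCh38.p14 per the submitters' processing notes. The kit does not mark strand, 43 members overlap another RefSeq gene, and kallisto divides reads among near copies by estimation. One entry with no gene name was left out (0.733% to 1.66% of counts per library).

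Estimated counts were filtered with filterByExpr, scaled by TMM and tested with edgeR 4.0.16 (glmQLFit and glmQLFTest, all 10 libraries in 1 fit, R 4.3.3), with Benjamini-Hochberg adjustment over all genes and a threshold of 0.05. The SE is the size of the log2 fold change over the square root of F. Alternatives used DESeq2 1.42.0 on rounded counts, limma 3.58.1 on log2(TPM + 1), other filters, a mesenchyme covariate, a replicate block and each library left out. The steps were tested on simulated data.

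Levels are given for the fusion SNAREs, for the 2 highest members of each role and for core genes (SYT1, SYP, SYN1, SV2A, UNC13A, RIMS1, BSN, PCLO, CPLX1 and CPLX2), and fold changes for the 10 tested members with the smallest p in each contrast. Others were named after their values were seen. Some genes that this rule takes are not reported here. Members follow from symbols alone, but members and lists were chosen with earlier results of these data known. Transcript names came from GENCODE v29, exon sequences from its GRCh38 coordinates and promoters from RefSeq. The p-values measure the spread between libraries, which may be technical.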

Additional observations from a re-analysis of the deposited data

Results flagged for a closer look

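In groups of 4 libraries, a value was picked out where it stood far from the other 3 by Dixon's ratio. Of 42 groups tested (the levels of 35 members and the transcript shares of 7), 4 were picked out, and chance picks out about 1 in 20. CPLX2 had 8.85 TPM in nociceptor library 4, against 4.22 to 4.67 TPM in the other nociceptor libraries. VAMP3 had 17.4 TPM in that same library, against 84.9 to 88.1 TPM in the others. SNAP25 had 545 TPM in nociceptor library 1, against 228 to 277 TPM in the others. STX16 had 19.5 TPM in nociceptor library 1, against 12.5 to 13.0 TPM in the others.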

How the results depend on the processing

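No member passed the adjusted threshold under any alternative run with edgeR, DESeq2 or limma. The median log2 fold change of members ranged with 1 library left out from 0.10 to 0.24 between proprioceptor and nociceptor, from 0.14 to 0.39 between mechanoreceptor and nociceptor and from -0.21 to 0.003 between proprioceptor and mechanoreceptor libraries. On log2(TPM + 0.1) the second was 0.50, and the third was -0.46, or -0.40 on log2(TPM + 1), where the medians of all genes were -0.27 and -0.21. Same-numbered libraries of different protocols correlated at -0.63 to 0.49 in their deviations (9 pairs), and 5 of 18 checks found a library closest to its own number. These values show no steady pairing by number, but so few pairs cannot show that a shared batch is absent. The labels do not say whether a number marks such a batch. With the replicate block 0 members were called, 25, 28 and 0 had an unadjusted p under 0.05 in the 3 contrasts, against 1974, 2392 and 221 of all genes (12.2%, 14.8% and 1.37%), and the medians were 0.29, 0.43 and -0.17. Nociceptor library 4 has no same-numbered library in the other protocols, so under the block it adds nothing to the contrasts. Without that library and with no block, 25, 27 and 1 members had such a p, against 15.3%, 16.1% and 1.71% of genes. The SNAP25 and SYT7 block values below equal those without it. With 1 library left out, the SNAP25 5a difference ranged from -18.1 to 0.69 points between proprioceptor and nociceptor and from -5.49 to 13.2 points between mechanoreceptor and nociceptor libraries, and was -0.43 with the block. STX8 ranged from -0.19 to 0.93. Other shares that turned sign with 1 library left out, between proprioceptor and nociceptor libraries, were SYN2 (-5.26 to 0.20), SYT1 (-3.87 to 0.42), SYT7 (-6.05 to 1.39) and CPLX2 (-9.42 to 6.38). Between mechanoreceptor and nociceptor libraries SYN2 ranged from -1.11 to 2.99 and SYT7 from -0.87 to 4.84, with -0.87 under the block, and between proprioceptor and mechanoreceptor libraries CPLX2 ranged from -13.8 to 1.98. From estimated counts, SYN2 was at -0.16 and CPLX2 at -1.22 between mechanoreceptor and nociceptor libraries and SYT7 at 0.79 between proprioceptor and nociceptor libraries, and with transcripts at a mean of at least 1 TPM they were at -0.39, -2.003 and 1.59. The cause was not tested.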
